A study of Mus musculus with 23 samples.

Results

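The microglia of an eye with raised intraocular pressure (IOP) can be compared with those of an uninjured eye in wild-type (WT) mice and, separately, in mice without the Spp1 gene. The subject here is the difference between those 2 responses: the change from naive to IOP in Spp1 knockout (KO) libraries minus the change from naive to IOP in WT libraries, computed for each gene on log2(normalized count + 1). A value above 0 means that the gene moved up further, or down less, with pressure in KO than in WT. The question was which genes responded to pressure in opposite directions in the 2 genotypes. Of the 35825 genes in the table, 16793 reached 10 normalized counts in 3 or more of the 16 libraries and were tested.

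The 16 libraries, of 23 in the series, formed 4 groups of 4: WT naive, WT IOP, KO naive and KO IOP. All mice carried Cx3cr1-GFP, a knock-in in which green fluorescent protein replaces coding sequence of the fractalkine receptor gene and so marks microglia and some other myeloid cells, and the KO mice in addition had a global, homozygous deletion of Spp1 (Spp1tm1Blh). Pressure was raised for 4 weeks by microbeads placed in the anterior chamber. The controls were saline-injected according to the study's methods, while the labels give them no treatment. According to the methods, live GFP+ cells were sorted from retinas pooled over several mice, mice of both sexes were used in the study, and the KO line was bred from heterozygous Cx3cr1-GFP mice. The age in weeks, the sexes within each library and the number of GFP copies in the sequenced KO mice are not given in the sources used here. The libraries are called pools below on the word of the methods, although a figure legend of the study counts its sequenced samples as mice. The labels do not say whether the pools of a group came from separate days or litters, so the p-values measure the spread between these pools. The deletion is not limited to microglia by design, so no difference can be assigned to the SPP1 of a single cell type, and in bulk RNA a smaller number of cells of a type cannot be told apart from less RNA per cell.

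Retinal microglia survey the tissue with fine processes, express P2ry12, Cx3cr1, C1q and Tmem119 at rest, and on injury take up debris and raise lysosomal and lipid genes in the state known as disease-associated microglia. SPP1, or osteopontin, is a secreted, integrin-binding phosphoprotein made by large retinal ganglion cells and, after injury, by many activated macrophages. Raised pressure damages ganglion cell axons at the optic nerve head and leads to slow loss of ganglion cells.

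The targeted gene did not separate the genotypes completely. Normalized counts of Spp1 were 1228, 1518, 334 and 492 in WT naive, and 2353, 2409.8, 1343 and 2772 in WT IOP. In the libraries labelled KO they were 350.2, 53.1, 6.78 and 81.6 for KO naive and 25.5, 811, 9.28 and 761 for KO IOP. KO naive replicate 1 and KO IOP replicates 2 and 4 therefore held Spp1 counts within or above the range of WT naive, and a gene-level count cannot tell reads of exons left in the allele from reads of intact transcripts. KO is used below as the label of these libraries. The interaction of Spp1 itself was -0.58 on the log2 scale (SE 1.80, limma adjusted p = 0.862) and ran from -1.55 to 0.58 when 1 library at a time was left out.

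Each library held between 23678254 and 30296094 reads on genes, and correlations between replicates of a group were 0.87 to 0.955. Ddx3y, on the Y chromosome, was at 3.05, 1, 0 and 0 in KO IOP against 1713, 1302, 28.1 and 1582 in KO naive, 2623, 556, 0 and 805 in WT naive and 762, 1502, 2274 and 633 in WT IOP. The KO IOP pools thus held almost no male RNA while most other pools did, and sex cannot be told apart from the KO response to pressure. Genes of other cell types also moved between libraries. The homeostatic microglia list (24 genes) took 5.92% to 7.2% of all normalized counts in WT naive, 4.1% to 6.31% in WT IOP, 2.65% to 7.24% in KO naive and 6.23% to 7.32% in KO IOP. KO naive replicate 3 held the highest share of its group, 7.24%, while the other KO naive pools were at 2.65%, 3.21% and 3.46%. The rod photoreceptor list (22 genes) ran the other way, from 1.48% in KO naive replicate 3 to 4.7% in KO naive replicate 4, and was at 1.88% to 2.32% in WT naive, 2.01% to 3.44% in WT IOP and 1.1% to 1.93% in KO IOP. Crystallins and other lens genes took 0.155% to 1.14% in WT IOP and 0.00678% to 0.024% in every library of the other 3 groups. These shares moved with the groups, and fits that hold the rod, homeostatic or lens level constant are given further on.

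**Figure D1:**
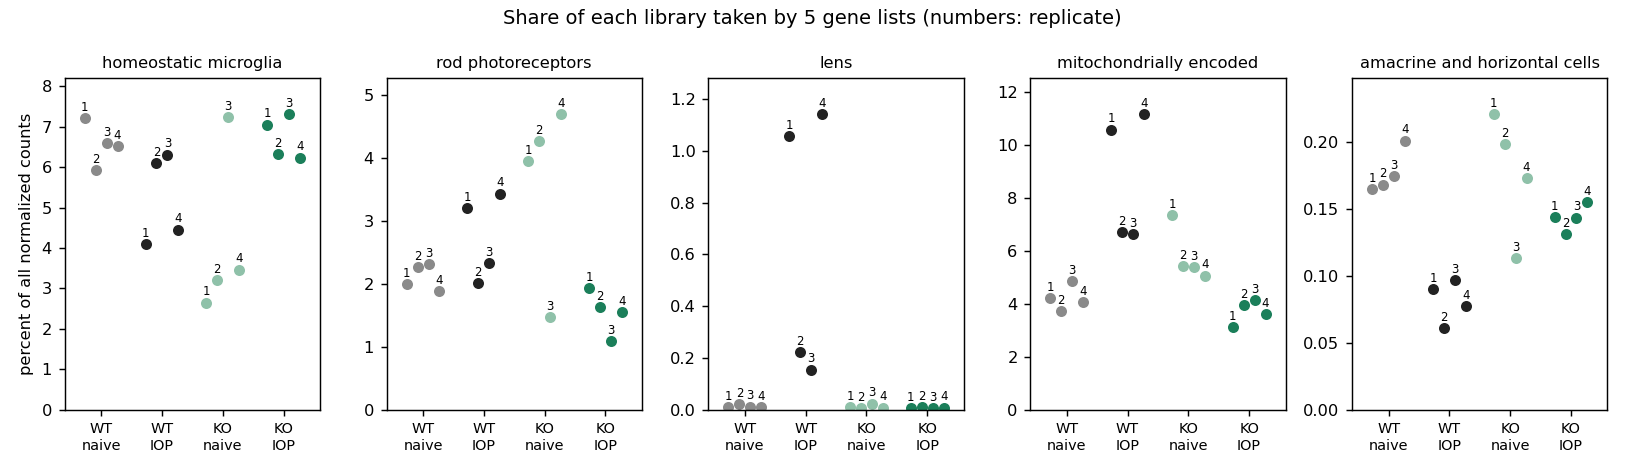
Share of all normalized counts (y axis, percent) taken by 5 gene lists in each of the 16 libraries, by group (x axis), with replicate numbers beside the points. KO naive replicates 1, 2 and 4 held the least homeostatic microglial RNA, 2.65% to 3.46%, and WT IOP replicates 1 and 4 held the most lens RNA, 1.06% and 1.14%.

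The promoters of 4 genes show 2 kinds of gene with differences of opposite sign, though not the widest ones. Itgam, the CD11b chain of complement receptor 3, and Pycard, the inflammasome adaptor ASC, are myeloid genes whose pressure response was higher in KO. Cngb1, a subunit of the rod cyclic nucleotide-gated channel, and Lrtm1, a gene used here as a marker of bipolar cells, had lower responses in KO. The 250 bases before the RefSeq start are printed 5′ to 3′ on the strand of the gene (GRCm38.p6), with the letters searched for in capitals: GAGGAAG, a core bound by the myeloid factor PU.1, for the first pair, and TAATCC, a core bound by the photoreceptor and bipolar factor CRX, for the second pair, on either strand.
Itgam, chr7:128062390-128062639, plus strand: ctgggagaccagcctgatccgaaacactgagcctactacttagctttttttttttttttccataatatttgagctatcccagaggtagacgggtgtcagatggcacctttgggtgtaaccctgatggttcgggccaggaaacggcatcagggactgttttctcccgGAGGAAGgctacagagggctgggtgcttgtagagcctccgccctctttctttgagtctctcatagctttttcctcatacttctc
Pycard, chr7:127993868-127994117, minus strand: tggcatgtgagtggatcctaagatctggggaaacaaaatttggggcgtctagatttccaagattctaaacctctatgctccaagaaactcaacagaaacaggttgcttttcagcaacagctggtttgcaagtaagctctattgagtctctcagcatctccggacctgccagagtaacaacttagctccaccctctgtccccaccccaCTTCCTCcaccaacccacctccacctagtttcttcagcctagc
Cngb1, chr8:95306586-95306835, minus strand: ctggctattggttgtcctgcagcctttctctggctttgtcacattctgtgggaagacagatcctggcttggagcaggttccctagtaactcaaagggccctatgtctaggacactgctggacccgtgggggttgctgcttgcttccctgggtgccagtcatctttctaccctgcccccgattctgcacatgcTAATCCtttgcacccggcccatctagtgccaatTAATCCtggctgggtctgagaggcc
Lrtm1, chr14:29017958-29018207, plus strand: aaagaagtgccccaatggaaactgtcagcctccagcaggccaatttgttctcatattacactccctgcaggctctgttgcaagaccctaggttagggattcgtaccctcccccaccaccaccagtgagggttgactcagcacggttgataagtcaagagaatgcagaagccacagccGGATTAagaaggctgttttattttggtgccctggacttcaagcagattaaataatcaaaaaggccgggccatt
Itgam carried its match in the orientation of the gene, 84 bases before the start, and Pycard in the reverse one, 43 bases before. Cngb1 held 2 matches, 58 and 25 bases before the start, and Lrtm1 a reverse match at 73 bases. Of the 11016 tested genes with such a promoter, 10.7% held GAGGAAG, against 14.3% of 700 genes with a higher KO response and 7.99% of 563 with a lower one. It stood in 5 of 15 homeostatic microglia promoters, 2 of 18 of the disease-associated state (11.1%), 1 of 15 chemokine promoters (6.67%) and 0 of 12 rod promoters. TAATCC stood in 5.19% of all promoters, 5.0% of those with a higher and 7.64% of those with a lower KO response, in 5 of 12 rod, 4 of 10 bipolar and 0 of 15 homeostatic promoters. It also stood in 4 of 18 promoters of the disease-associated state (22.2%) and 3 of 16 interferon response promoters (18.8%), so it was not limited to photoreceptor and bipolar lists. A match describes these letters and is not evidence of binding.

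Across all genes tested, 982 genes (5.85%) had a higher and 944 (5.62%) a lower pressure response in KO than in WT (limma, Benjamini-Hochberg adjusted p under 0.05 and a difference over 0.58 on the log2 scale). Of these 1926 genes, 1839 or 95.5% had mean responses of opposite sign in the 2 genotypes, against 60% of all genes tested (10077). A gene with responses of opposite sign has a larger difference for the same size of each response, so the interaction test favours such genes. In 920 genes the mean response was below 0 in WT and above 0 in KO, and in 919 it was above 0 in WT and below 0 in KO, without a test of either response. The 982 genes with a higher KO response had median responses of -0.45 in WT and 0.88 in KO. The 944 genes with a lower KO response had medians of 0.80 in WT and -1.04 in KO. For all genes the medians were -0.02 and -0.12, and that of the difference -0.08.

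The naive libraries already differed in the direction opposite to the response. The genes with a higher KO response lay at a median of -0.76 in KO naive against WT naive and at 0.56 in KO IOP against WT IOP. Those with a lower KO response lay at 0.73 before and -1.11 after pressure. The difference of responses is by construction the second of these values minus the first, so both parts enter it. Taken alone, the WT response held 171 genes that rose (1.02%) and 257 that fell (1.53%), and the KO response 1024 that rose (6.1%) and 958 that fell (5.7%). Among the 982 genes the KO response alone was called in 616, the WT response alone in 101, both in 11 and neither in 254. Among the 944 genes the same counts were 436, 105, 36 and 367.

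**Figure D2:**
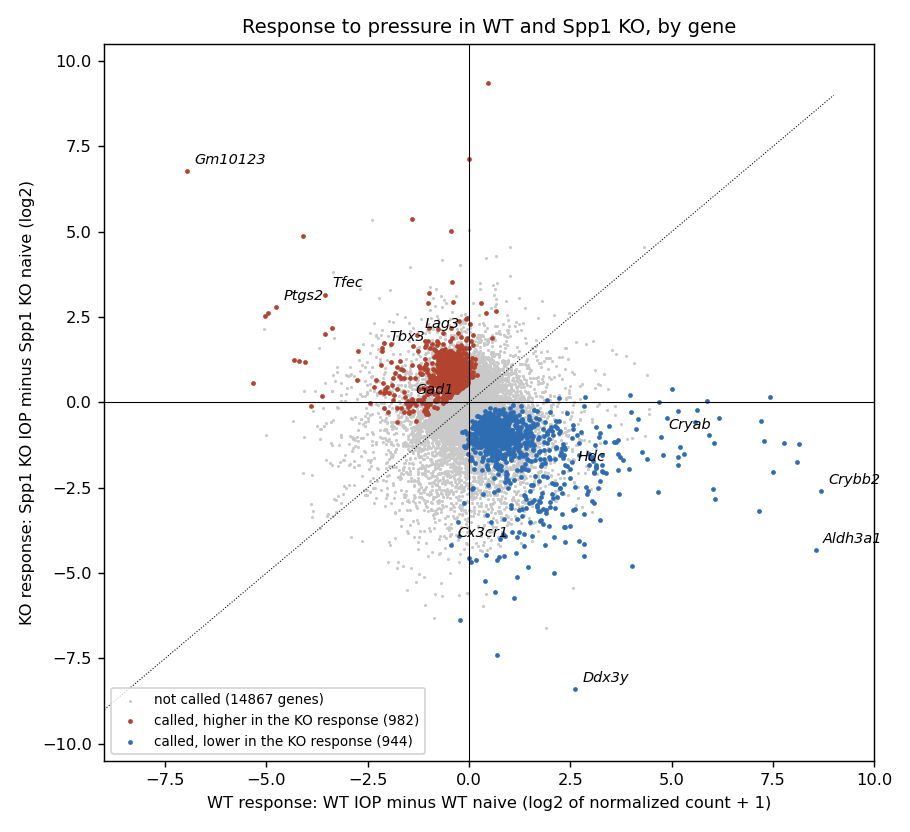
Each point is 1 of the 16793 genes, at its mean log2 response to pressure in WT (x axis) and in KO (y axis). Red points are the 982 genes with a higher and blue points the 944 genes with a lower KO response, which lie mostly in the upper left and lower right parts, and the dotted line marks equal responses.

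The libraries themselves overlapped for most of these genes. In 108 of the 982 genes (11.0%) and 137 of the 944 (14.5%), the 4 IOP libraries lay apart from the 4 naive libraries in both genotypes, in opposite directions, against 257 of all genes (1.53%). Counts depended on single pools: 3898 genes were called without KO naive replicate 3, 741 without KO naive replicate 2, 766 without KO naive replicate 4, 1281 without KO naive replicate 1, 739 without WT IOP replicate 1, 752 without WT IOP replicate 4, and 1040, 997 and 913 without WT naive replicates 1, 3 and 4. None of the 1926 genes changed sign in any of the 16 fits that left out 1 library, while 36 did with the homeostatic level as a covariate, 16 with the lens level and 1 with the rod level. The split of calls was 51.0% higher as deposited, 36.2% after upper-quartile rescaling, which moved the median of all genes from -0.08 to -0.25, 37.3% in edgeR and 41.3% in DESeq2 on the recovered reads.

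Of 24 homeostatic microglia genes tested, 12 had a higher response in KO, against 5.85% of all genes, and 1, Cx3cr1, a lower one, with a list median of 1.47 for the difference, -0.37 for WT and 1.05 for KO. Itgam (chr7:128062640-128118491, plus strand) was at 34666, 25268, 34406 and 32119 in WT naive and at 13468, 23188, 22483 and 15543 in WT IOP, without overlap. In KO naive it was at 7175, 7412, 31622 and 8715, and in KO IOP at 31791, 37217, 37189 and 36625. The third KO naive pool stood at the WT naive level and just below the lowest KO IOP pool, while the other KO naive pools were far lower, so the KO groups did not overlap but nearly touched. The difference of responses was 2.48 (SE 0.50, adjusted p = 0.0107), with -0.79 in WT (adjusted p = 0.294) and 1.70 in KO (adjusted p = 0.0128).

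Fcrls, an Fc receptor-like surface protein and marker of microglia, followed the same course with less spread. Its counts were 26016, 23071, 24058 and 21779 in WT naive and 10075, 18802, 16777 and 10901 in WT IOP. In KO they were 6638, 6940.2, 14118 and 8072 before and 23623, 19400.2, 25023 and 19681 after pressure. Both genotypes were free of overlap, and the difference was 2.15 (SE 0.33, adjusted p = 0.00319). Sparc, a matrix-associated protein that is abundant in microglia, had a mean of 78228 ± 7465 (SD, n = 4) in WT naive, 42837 ± 8762 in WT IOP, 35658 ± 16823 in KO naive and 66529 ± 10952 in KO IOP, a difference of 1.88. The other called members were Trem2 and its adaptor Tyrobp, Csf1r, Aif1, P2ry12, Siglech and the C1q genes. Between 6 and 24 of the list were called when 1 library was left out, the 24 without KO naive replicate 3, and 2 were called with the rod level held constant.

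Cx3cr1, the receptor for the neuronal chemokine fractalkine and the gene that carries the GFP knock-in, was the exception. Counts were 67878, 44958, 52122 and 52866 in WT naive and 26836, 54612, 51592 and 31626 in WT IOP, which overlapped. They were 9417, 23090.1, 26283 and 24661 in KO naive and 1079, 1233, 1067 and 952 in KO IOP. All 4 KO IOP libraries were below every other library, although the homeostatic list as a whole took as large a share there as in WT naive. The difference was -3.71 (SE 0.41, adjusted p = 0.000675), with -0.45 in WT (adjusted p = 0.483) and -4.17 in KO (adjusted p = 2.88e-06). The KO naive libraries were below WT naive as well, with a difference of -1.475. The knock-in removes coding sequence of Cx3cr1, and the number of GFP copies in the KO pools cannot be told apart here from a change in expression. After optic nerve crush (ONC) the libraries labelled KO held 46130.3, 33812, 12869 and 22396.

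Genes of Fc receptor signalling through the kinase Syk mostly had higher KO responses. Of 23 genes tested, 13 had a higher KO response, against 5.85% of all genes, and 0 a lower one, with a median difference of 1.41. Responses of opposite sign were found in 22 of the 23, against 60% of all genes. Syk (chr13:52583173-52648792, plus strand), the tyrosine kinase recruited by these receptors, was at 1863, 1604, 1849 and 2444 in WT naive and 993, 1961, 968 and 798 in WT IOP, where the second pool lay inside the naive range. In KO it was at 608, 816, 1737 and 873 before pressure and 1887, 2785, 2635 and 2421 after, without overlap. The difference was 2.16 (SE 0.42, adjusted p = 0.00976). Card9, an adaptor below Syk, differed by 1.72, the low-affinity receptor Fcgr3 by 1.77 and the kinase subunit Pik3cd by 1.44. Among the other called genes were Fgr, Vav1, Plcg2, Lat2, Fcer1g, Fcgr1 and the phosphatases Ptpn6 and Inpp5d. Without WT IOP replicate 1, WT IOP replicate 4 or KO naive replicate 2 the count was 3 and without KO naive replicate 3 it was 21. It was 0 in limma with the rod, homeostatic or lens level as a covariate and without WT IOP replicates 1 and 4.

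Jak3, the kinase of cytokine receptors with the common gamma chain, was at 2935, 2656, 3301 and 2764 in WT naive and at 1084, 1847, 1854 and 1289 in WT IOP. KO naive held 949, 708, 1936 and 917 and KO IOP 2567, 3542, 3721 and 3034. The naive and IOP libraries lay apart in both genotypes, and the difference was 2.58 (SE 0.36, adjusted p = 0.00178).

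Lag3, a receptor related to CD4 that binds MHC class II, had one of the smallest adjusted p-values. It was at 999.6, 882, 1239.8 and 1331 in WT naive and fell to 467, 542, 502 and 333 in WT IOP. KO naive libraries held 247, 239, 524 and 197, and KO IOP libraries 776, 1131, 1379.5 and 1178, so that each genotype was free of overlap. The difference was 3.24 (SE 0.40, adjusted p = 0.000675), with -1.27 in WT (adjusted p = 0.021) and 1.96 in KO (adjusted p = 0.00454).

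**Figure D3:**
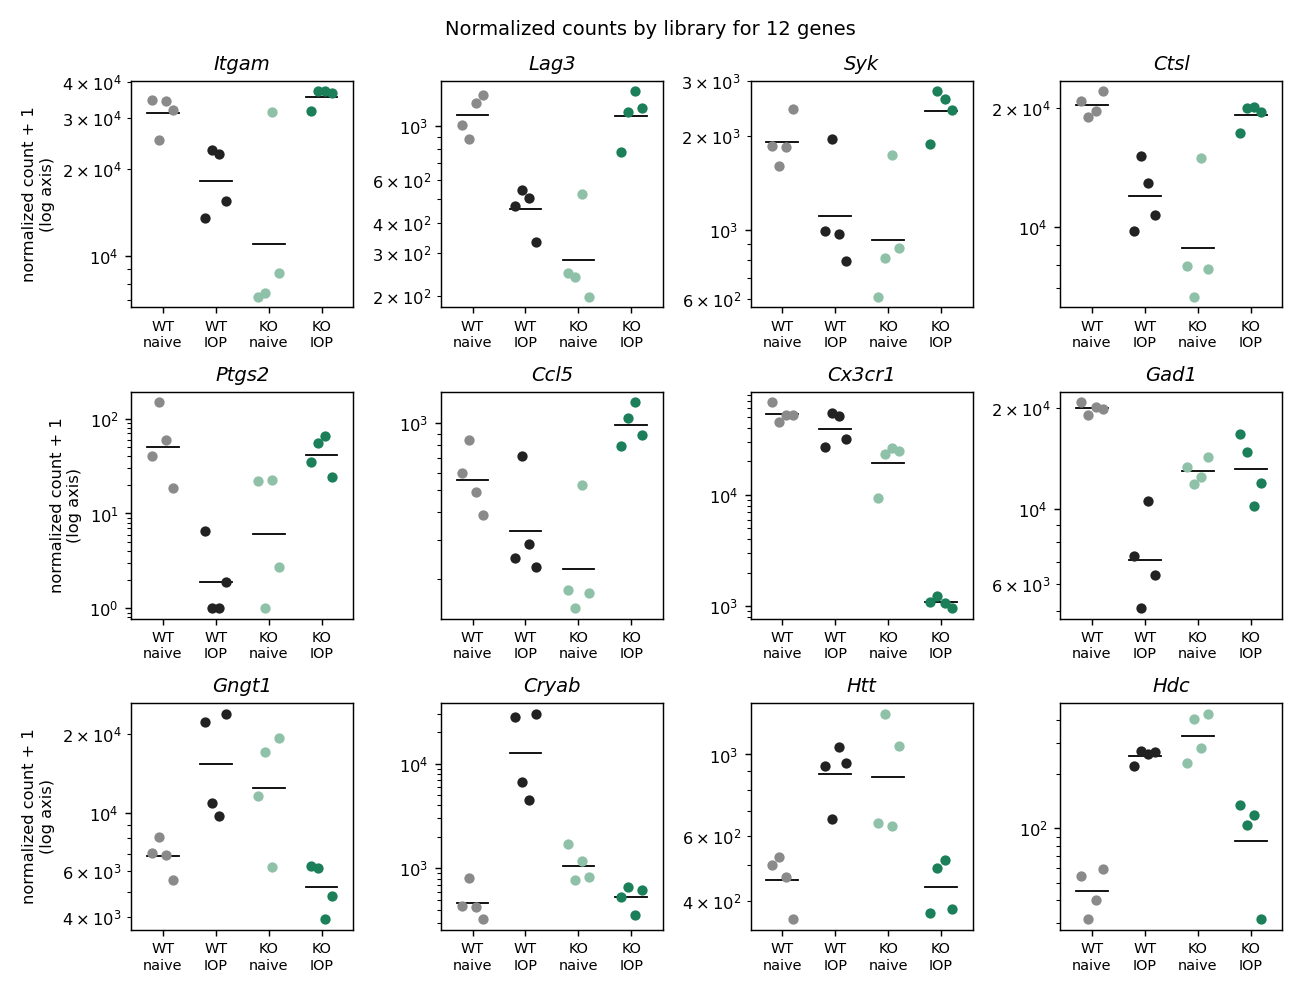
Normalized count + 1 (log axis) in each of the 16 libraries for 12 genes, with the geometric mean of each group as a bar. Itgam, Lag3, Syk and Ctsl were low in KO naive replicates 1, 2 and 4, Cx3cr1 was at 952 to 1233 in KO IOP, and Gngt1, Cryab, Htt and Hdc ran the other way.

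Of 26 tested genes of the disease-associated state, 9 had a higher KO response, against 5.85% of all genes, and 0 a lower one, with a median difference of 1.06 and medians of 0.06 in WT and 1.10 in KO. Cst7, cystatin F, an inhibitor of lysosomal cysteine proteases and a hallmark of that state, was at 376, 289, 269 and 382 in WT naive and at 171, 405, 432 and 191 in WT IOP. It was at 149, 209.9, 291 and 159 in KO naive and rose to 766, 1124, 1212 and 1072 in KO IOP. The WT groups overlapped and every KO IOP library exceeded every other one of the 16 libraries, with a difference of 2.63 (SE 0.45, adjusted p = 0.00469). Lpl, lipoprotein lipase, differed by 1.603, with -1.002 in WT and 0.60 in KO, and the surface antigen Cd52 by 1.95. Itgax, Igf1, Ctsb, Ctsd and B2m completed the called genes with Ctsl. Leaving out KO naive replicate 3 gave 18 called genes, and leaving out 1 of several other libraries, WT IOP replicate 1 among them, gave 4.

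Lysosomal hydrolases formed the longest list of called microglial genes. Of 38 tested, 16 had a higher KO response, against 5.85% of all genes, and 0 a lower one, and the median difference was 1.16. Ctsl (chr13:64359337-64370890, minus strand), cathepsin L, was at 20790.1, 18979.5, 19568 and 21987 in WT naive and at 9765, 15110.5, 12890.3 and 10699 in WT IOP. It was at 7940.4, 6627, 14868 and 7809.6 in KO naive and at 17250.5, 19982, 20074 and 19548 in KO IOP. Neither genotype showed overlap, and the difference was 1.88 (SE 0.29, adjusted p = 0.00319). Npc2, which hands cholesterol out of the lysosome, differed by 1.65, the hydrolase Gusb by 1.62 and Psap, the precursor of the saposins, by 1.71. The counts under single-library exclusions ran from 8 (without WT IOP replicate 1 or 4, or KO naive replicate 2 or 4) to 29 (without KO naive replicate 3). Of 17 subunits of the vacuolar ATPase, which acidifies lysosomes, 3 were called higher, and all 17 had a value above 0.

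Few autophagy genes were called. Of 40 core autophagy genes 3 were called higher (7.5%, against 5.85% of all genes), and of 26 selective autophagy genes 1 was called higher and 2 lower. Becn1, a subunit of the kinase complex that starts autophagosomes, had means of 3428 ± 197 in WT naive, 2488 ± 296 in WT IOP, 2263 ± 409 in KO naive and 3640.5 ± 238 in KO IOP (SD, n = 4), a difference of 1.17. Plekhm1, which tethers autophagosomes to lysosomes, differed by 0.85, Gabarap by 0.69 and the endoplasmic reticulum-phagy receptor Ccpg1 by 0.74. Htt and Ubqln2, which went the other way, are described with the genes that the study names.

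Complement genes were called at 8 higher and 1 lower of 19, against 5.85% higher and 5.62% lower over all genes. The list counted the C1q chains and the receptor integrins Itgam, Itgb2 and Itgax. Cfb, the factor B of the alternative pathway, was at 131, 247, 333 and 442 in WT naive and at 205, 98.5, 114 and 132 in WT IOP. KO naive held 102, 33.8, 75.6 and 42.5 and KO IOP 272, 372, 144 and 340.3. The WT groups overlapped, the KO groups did not, and the difference was 3.17 (SE 0.63, adjusted p = 0.0105). Cd59a, which blocks the membrane attack complex and is made by many cell types, went the other way at -2.28, and C3 had 1.71 without passing the test (adjusted p = 0.0685). Among 30 receptors and helpers of phagocytosis, 10 were called higher, among them Rac2 at 2.02, Mertk, Dock2, Lrp1 and the bridging protein Pros1, and 2 lower. Those 2 were Mfge8, a bridging protein for apoptotic cells that other retinal cells also make, at -1.72, and Anxa1, an annexin that limits inflammation, at -2.78. Within WT IOP both were highest in pools 1 and 4, which held the most lens RNA. Anxa1 was at 2657, 931, 523 and 2265 there, and its difference was 0.009 with the lens level as a covariate. The source of this RNA was not tested. Single-library exclusions gave 3 to 11 for complement and 5 to 17 for phagocytosis, the highest without KO naive replicate 3 and the lowest without WT IOP replicate 1 or 4 or KO naive replicate 2 or 4.

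Lipid mediators were called at 6 higher and 0 lower of 21, against 5.85% higher and 5.62% lower over all genes. Ptgs2, the inducible cyclooxygenase, was low throughout: 39.1, 147, 58.3 and 17.6 in WT naive and 5.5, 0, 0 and 0.886 in WT IOP. KO naive held 21.2, 0, 21.3 and 1.7, and KO IOP 33.6, 54.2, 65 and 23.2. In WT IOP every pool was below every naive pool, and 3 reads correspond to 2.41 to 3.28 normalized counts, so that 3 of the 4 WT IOP values and 2 of the KO naive ones lie under 3 reads. The fitted difference was 7.55 (SE 1.42, adjusted p = 0.00809) and depends on the added 1. Hpgds, the haematopoietic prostaglandin D synthase, differed by 1.85, Ltc4s, which makes leukotriene C4, by 1.49, and the cytosolic phospholipase Pla2g4a by 1.17. Alox5ap and Pla2g6 were the remaining called genes. The list gave 2 called genes without WT naive replicate 1, WT IOP replicate 1 or 4, or KO naive replicate 2 or 4, and 12 without KO naive replicate 3.

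The NF-kB, cytokine, chemokine, Toll-like receptor and MHC lists had 5.26% (MHC class I) to 27.3% (MHC class II) called in either direction. Over all genes 5.85% were higher and 5.62% lower. The Fc receptor (56.5%), complement (47.4%) and lipid mediator (28.6%) lists above had larger shares. Of 28 NF-kB genes 4 were called higher and 1 lower, of 26 cytokine and inflammasome genes 4 were called higher, of 22 chemokines 2, of 16 Toll-like receptor genes 3, of 11 MHC class II genes 3 and of 19 MHC class I genes 1. None of 26 type I interferon response genes was called in limma, where Zbp1, a sensor of nucleic acids in Z form, had the smallest adjusted p (1.55, adjusted p = 0.057). Of these 26 genes, 4 were at an unadjusted p under 0.05, edgeR called 0 and DESeq2 1. Il1rn, the interleukin-1 receptor antagonist, had means of 75.2 ± 24.8 in WT naive, 58.0 ± 24.6 in WT IOP, 21.6 ± 3.46 in KO naive and 184 ± 78.8 in KO IOP, a difference of 3.35. Pycard differed by 1.78, the pore former Gsdmd by 1.46 and Il1a by 1.54. The inhibitor Nfkbie, the kinase subunit Ikbkb and Nfkb2 were called higher at 1.40, 1.02 and 1.65. Bcl3, a nuclear IkB protein, was called lower at -5.33 and had 461 ± 268 in WT IOP against 17.4 ± 11.2, 42.8 ± 29.1 and 29.1 ± 18.5 in WT naive, KO naive and KO IOP. Its WT IOP libraries were at 599, 216, 259 and 771, highest in replicates 1 and 4, which held the most lens RNA.

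Ccl5, a chemokine that draws T cells and monocytes, was at 600.1, 843, 489 and 388 in WT naive and at 249, 712, 286 and 226 in WT IOP. It was at 177, 147, 526 and 173 in KO naive and at 789, 1059, 1239 and 888 in KO IOP. The second WT IOP and the third KO naive pool stood above their groups, the KO groups did not overlap, and the difference was 2.91 (SE 0.58, adjusted p = 0.0103). Ccl9 differed by 2.15. H2-Oa, which modulates peptide loading of MHC class II, differed by 2.83, Ctss by 1.99 and Cd86, a costimulatory ligand, by 1.38. Tlr6 differed by 1.71, Tlr7 by 1.46 and Unc93b1, which carries Toll-like receptors to endosomes, by 1.37. Of 11 tested SPP1 receptors and partners, 2 were called higher (18.2%, against 5.85% of all genes). They were Itgb3, the beta chain of the osteopontin receptor, at 2.11 and the protease Mmp9 at 2.26.

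**Figure D4:**
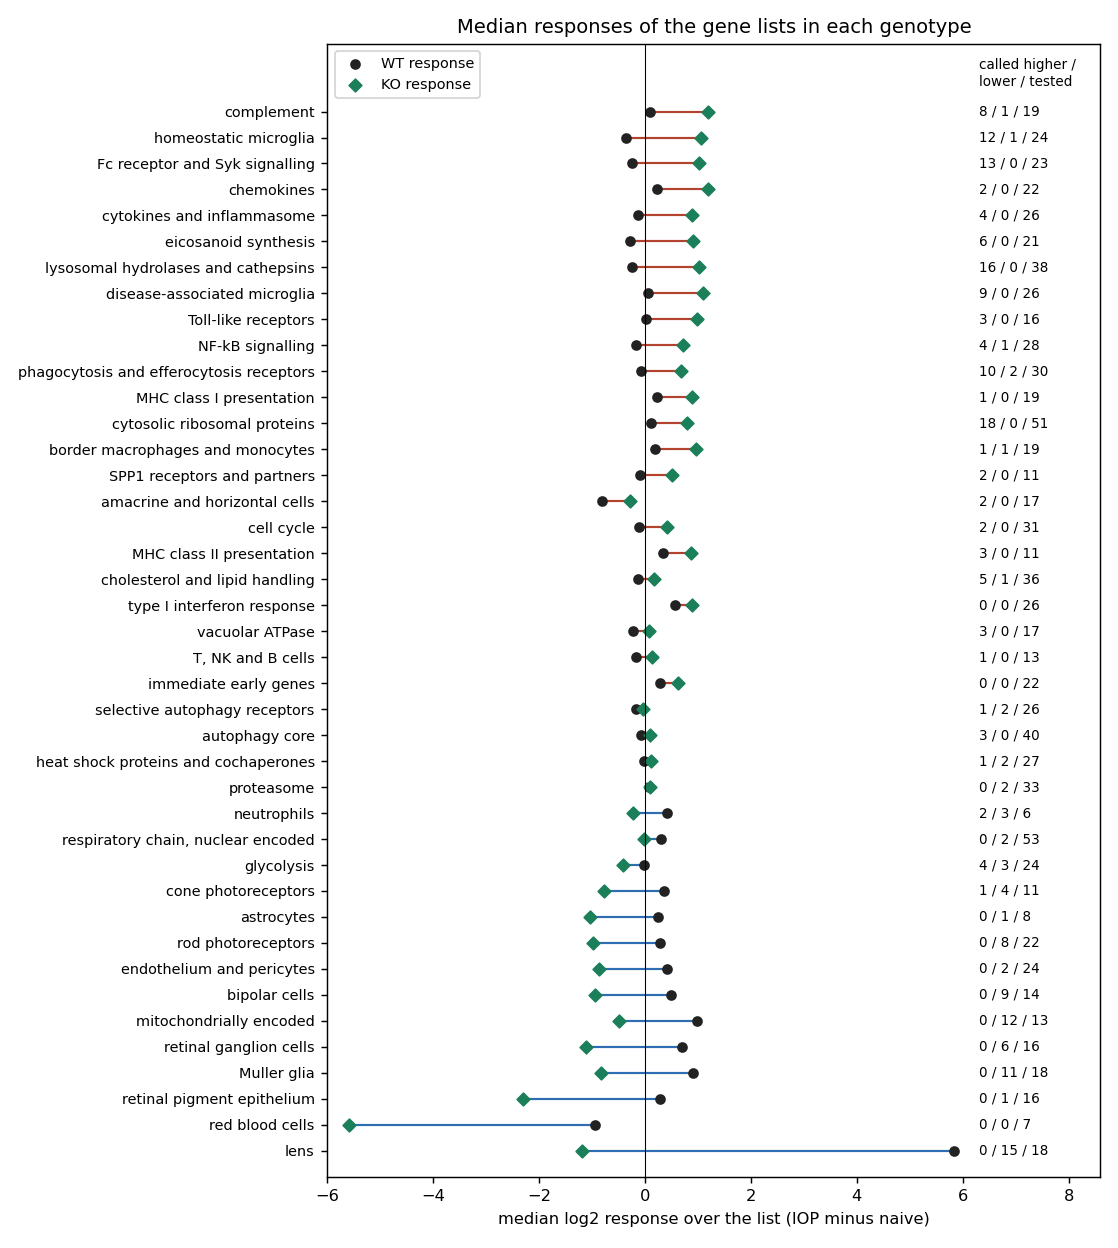
Median log2 response to pressure over each gene list in WT (circles) and KO (diamonds), ordered by the median difference of responses, with counts of genes called higher, called lower and tested at the right. Lens genes had the widest gap, with medians of 5.84 in WT and -1.19 in KO. The homeostatic (1.47) and disease-associated (1.06) microglia lists lay above the lists of other retinal cells. Of those, amacrine and horizontal cells were highest at 0.57, above the interferon (0.30) and MHC class II (0.33) lists.

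Of 51 cytosolic ribosomal protein genes 18 were called higher, against 5.85% of all genes, and 0 lower, with a median difference of 0.68, and Rpl32 had means of 4829 ± 285, 4100.1 ± 519, 2802 ± 1362 and 6362 ± 635 in WT naive, WT IOP, KO naive and KO IOP. The ribosomal count was 5 without KO naive replicate 2, 38 without KO naive replicate 3 and 1 with all 23 libraries in the fit. Of 13 mitochondrially encoded genes 12 were called lower, with medians of 0.98 in WT and -0.49 in KO, in all 16 fits without 1 library. The count was 3 without WT IOP replicates 1 and 4, 2 with the rod level as a covariate, and 0 in limma with the homeostatic or the lens level. mt-Nd3, a subunit of complex I, was at 2750.1, 2133, 2820.0 and 1863 in WT naive and at 10535, 6130.3, 4559 and 11263 in WT IOP. KO naive held 3647, 3358, 4169 and 3338 and KO IOP 1561, 3211, 2468 and 2459.7. Both genotypes were free of overlap in opposite directions, and the difference was -2.31 (SE 0.38, adjusted p = 0.00413). The mitochondrial share of all counts was 6.64% to 11.2% in WT IOP, against 3.74% to 4.87% in WT naive, 5.07% to 7.35% in KO naive and 3.12% to 4.14% in KO IOP. Of 53 nuclear genes of the respiratory chain 2 were called lower (3.77%, against 5.62% of all genes). Among 24 glycolysis genes 4 were higher and 3 lower (29.2% together), with Hk3 at 1.55 and Hk2 at -1.13. Among 36 cholesterol and lipid genes 5 were higher and 1 lower (16.7% together), with Abca1 at 1.41 and Acaca at -1.35. Both shares compare with 5.85% higher and 5.62% lower over all genes. Leaving out 1 library gave 2 to 13 called glycolysis genes and 2 to 11 called cholesterol and lipid genes. Of 33 proteasome genes 2 were lower (6.06%), of 27 heat shock genes 1 was higher and 2 lower (11.1% together), and of 31 cell cycle genes 2 were higher (6.45%), near the 5.85% higher and 5.62% lower over all genes. Of 22 immediate early genes limma and edgeR called 0 and DESeq2 1, with 5 at an unadjusted p under 0.05.

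Genes of photoreceptors and bipolar cells made up a second group, with lower responses in KO. Of 22 rod genes 8 were called lower, against 5.62% of all genes, and 0 higher. All 22 values were below 0, with medians of 0.29 in WT and -0.99 in KO. Gngt1 (chr6:3993792-3997436, plus strand), the gamma chain of rod transducin, was at 7045, 8074, 6924 and 5552 in WT naive and at 22226, 10867, 9747 and 23894 in WT IOP. It was at 11635, 17054, 6219 and 19268 in KO naive and at 6269, 6161, 3924 and 4815 in KO IOP. The WT groups lay apart, the KO groups overlapped through the third naive pool, and the difference was -2.43 (SE 0.48, adjusted p = 0.0101). Guca1a, which activates the guanylate cyclase of photoreceptors, differed by -2.07, the phosphodiesterase subunit Pde6g by -1.84 and Cngb1 by -1.98. Of 11 cone genes 4 were lower, Gnb3 at -2.34 among them, and 1, Gngt2, higher. The rod count was 22 without KO naive replicate 3 and 4 at the lowest.

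Of 14 bipolar genes 9 were called lower, against 5.62% of all genes, and all 14 were below 0. Pcp2, a modulator of G proteins in ON bipolar cells, was at 972, 1097, 844 and 736 in WT naive and at 3095, 1834, 1614 and 3339 in WT IOP. KO naive held 2973, 3103, 1547 and 3380.0 and KO IOP 1438, 1408, 1795 and 1251. WT libraries lay apart, KO libraries overlapped in the third naive pool, and the difference was -2.23 (SE 0.38, adjusted p = 0.0045). Gng13 differed by -2.31, Lrtm1 by -1.58 and the transcription factor Otx2 by -1.82.

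Ganglion cell genes went the same way, with 6 of 16 called lower, against 5.62% of all genes. Sncg, gamma-synuclein, a marker of ganglion cells, was at 211, 198, 209 and 284 in WT naive and at 809.7, 463, 438 and 810.1 in WT IOP. KO naive held 419, 729, 657 and 726 and KO IOP 171, 226, 176 and 210.0. Every library of one condition lay apart from the other condition in both genotypes, and the difference was -3.10 (SE 0.37, adjusted p = 0.000675). Slc17a6, the vesicular glutamate transporter of ganglion cells, differed by -2.88, the neurofilament Nefm by -1.60 and the potassium channel Kcng4, which marks alpha ganglion cells, by -1.88.

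Müller glia, which span the retina, had 11 of 18 genes called lower, against 5.62% of all genes, and a median difference of -1.96. The summed share of the list ran otherwise, with means of 1.16% in WT naive and in WT IOP, 1.23% in KO naive and 1.64% in KO IOP. Crym, a thyroid hormone-binding crystallin, was at 649, 827, 826 and 787 in WT naive and at 6580.5, 2140.5, 1757 and 7222 in WT IOP. KO naive held 1289.9, 981, 958 and 1158 and KO IOP 799, 549.5, 601 and 522. WT IOP pools 1 and 4 stood far above the rest, no genotype showed overlap, and the difference was -3.08 (SE 0.51, adjusted p = 0.00413). The potassium channel Kcnj10 differed by -1.95, the filament Vim by -2.28 and the lipid transporter Abca8a by -2.10. Vim was at 5336, 2456, 1656 and 5417 in WT IOP. Like Crym, it was highest in pools 1 and 4, which held the most lens RNA. Among 8 astrocyte genes, Aqp4 alone was called, at -1.34, and among 16 genes of the pigment epithelium Ttr, at -4.03.

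Amacrine and horizontal cells are the inhibitory neurons of the retina. Of their 17 genes 2 were called higher and 0 lower (11.8%), against 5.85% higher and 5.62% lower over all genes. The list medians were -0.81 in WT and -0.29 in KO. Gad1, which makes the transmitter GABA in amacrine cells, was at 20726, 19056, 20145 and 19868 in WT naive and fell to 7259, 5092, 10559 and 6385 in WT IOP. KO naive held 13306, 11882, 12505 and 14252 and KO IOP 16724, 14772, 10225 and 11990.4, which overlapped. The difference was 1.52 (SE 0.27, adjusted p = 0.00618), with -1.50 in WT (adjusted p = 0.000922) and 0.03 in KO (adjusted p = 0.939). Pax6, a transcription factor of amacrine cells, differed by 0.76. Npy, a peptide of amacrine cells, was at 1103, 1599, 1368 and 1573 in WT naive, 588, 212, 278 and 633 in WT IOP, 692, 640.1, 353 and 691 in KO naive and 1129, 705, 407 and 632 in KO IOP, a difference of 2.09 (SE 0.51, adjusted p = 0.0217).

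Lens genes had the widest differences of any list, with 15 of 18 called lower, against 5.62% of all genes. Cryab (chr9:50751325-50756636, plus strand), a small heat shock protein of the lens that stressed glia also make, was at 431, 805, 431 and 324 in WT naive and at 27846, 6735, 4475 and 30144 in WT IOP. It was at 1703, 782, 1168 and 818 in KO naive and at 534, 664, 361 and 619 in KO IOP. Both genotypes lay apart, and the difference was -5.75 (SE 0.73, adjusted p = 0.00095). Crybb2, a crystallin of the lens, had means of 81.6 ± 98.4, 23876 ± 19576, 157 ± 292 and 5.84 ± 4.85 in WT naive, WT IOP, KO naive and KO IOP, a difference of -11.30. Aldh3a1, an aldehyde dehydrogenase of cornea and lens, was at 14.2, 0, 0 and 0 in WT naive, 1409, 426, 329 and 1522 in WT IOP, 12.2, 71.6, 72.7 and 96 in KO naive, and 0, 40.2, 0 and 0 in KO IOP. The KO groups of Aldh3a1 overlapped. The same WT IOP pools, 1 and 4, were highest for Aldh3a1, Cryab and Crym. Aldh3a1 differed by -12.89 (SE 1.72, adjusted p = 0.00124), a fitted value that depends on the added 1 because most libraries of 2 groups were at 0.

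Markers of blood, vessel and other myeloid cells gave mixed counts. Of 19 border macrophage and monocyte genes, 1 was called higher, the leukocyte antigen Ptprc at 1.70, and 1 lower, S100a6 at -4.29, which was at 1710 ± 1250 in WT IOP and at 81.9 ± 8.26, 119 ± 15.5 and 102 ± 35.1 in WT naive, KO naive and KO IOP. Of 6 tested neutrophil genes 2 were higher and 3 lower (83.3% together), and 1 to 5 were called when 1 library was left out. Of 13 lymphocyte genes 1 was higher (7.69%), Cd79b at 2.08. Of 24 genes of endothelium and pericytes 2 were lower (8.33%), Abcc9 and Pdgfrb. All of these counts compare with 5.85% higher and 5.62% lower over all genes. Limma, edgeR and DESeq2 called 0 of 7 red blood cell genes, with 4 at an unadjusted p under 0.05, although Hba-a2 was at 2.02 to 5333 in KO IOP and at 2152 to 5182 over the naive libraries.

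Of 20 tested genes that the study names, 4 were called higher, Syk, Ptgs2, Ccl5 and Pla2g6, and 3 lower, Htt, Ubqln2 and Cx3cr1. Over all genes 5.85% were higher and 5.62% lower. The study picked part of these genes, such as Syk and Htt, from its analysis of these libraries, so for those the direction is not independent evidence. Htt (chr5:34761740-34912534, plus strand), huntingtin, a scaffold in selective autophagy, was at 499.8, 525, 462 and 355 in WT naive and rose to 927, 668, 1048 and 949 in WT IOP. It was at 649, 1291, 639 and 1050.5 in KO naive and fell to 371, 491, 516 and 379 in KO IOP. Neither genotype showed overlap, and the difference was -1.95 (SE 0.34, adjusted p = 0.00526), with 0.96 in WT (adjusted p = 0.0437) and -0.99 in KO (adjusted p = 0.0201).

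Ubqln2, a shuttle for ubiquitinated proteins, was at 111, 109, 235 and 167 in WT naive, 559.7, 252, 179 and 513 in WT IOP, 238, 333, 159 and 364 in KO naive and 42.8, 195, 111 and 142 in KO IOP. Groups overlapped in both genotypes, the difference was -2.46 (SE 0.68, adjusted p = 0.032), and it was called in 9 of 16 fits without 1 library. Pla2g6, a calcium-independent phospholipase, was at 578, 586, 739.8 and 613 in WT naive, 258, 132, 310.2 and 301 in WT IOP, 535, 655, 658 and 598 in KO naive and 465, 650.0, 523 and 440.2 in KO IOP. The WT libraries lay apart and the KO libraries overlapped, so that its difference of 1.15 (SE 0.34, adjusted p = 0.0424) came with -1.39 in WT and -0.24 in KO, and it was called in 4 of the 16 fits. Relb at 1.97 (adjusted p = 0.134), C3, St13 at 0.63 (adjusted p = 0.0613), Wdfy3 at -0.61 (adjusted p = 0.172), Atg7 at 0.51 (adjusted p = 0.229), Hsp90ab1 at 0.44 (adjusted p = 0.109), Optn at -0.38, Dnajb1 at -0.17, Itgav at 0.05, Cd44 at 0.02, App at 0.01 and Il10 at -1.58 did not pass the test.

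In 47 genes both responses were called on their own and had opposite signs, 11 falling in WT and rising in KO, and 36 the reverse. No other gene with both responses called had a called interaction. The 11 were Tfec, Tbx3, Lag3, Cdh20, Serpine2, Gng2, Pygl, Nectin2, Slc36a4, Ak1 and Aagab. Tbx3, a T-box factor, was at 367, 886, 1628 and 1358 in WT naive and at 255, 227, 328 and 95.7 in WT IOP. KO naive held 865, 439, 351 and 281 and KO IOP 1712, 1233, 1130.0 and 1314. Both genotypes lay apart, with a difference of 3.75 (SE 0.65, adjusted p = 0.00494). Tfec, a relative of the lysosomal regulator TFEB that macrophages express, was at 33.7, 52.3, 47.3 and 53.9 in WT naive, 0.916, 5.47, 0.943 and 9.75 in WT IOP, 10.6, 9.65, 0 and 0.85 in KO naive and 12.2, 104, 27.8 and 35.3 in KO IOP, a difference of 6.71 (SE 1.26, adjusted p = 0.00809).

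Hdc, histidine decarboxylase, which makes histamine, was 1 of the 36. It was at 53.3, 30.2, 38.8 and 58.5 in WT naive and at 219.8, 268, 257 and 266 in WT IOP. KO naive held 229, 404, 280.0 and 433 and KO IOP 133, 104, 118 and 30.3. The WT IOP and KO naive libraries stood at like levels above the other groups, and the difference was -4.44 (SE 0.59, adjusted p = 0.00124). Others of the 36 were Aldh3a1, Lgsn, the growth factor Btc, the Müller glia factor Lhx2, Sncg, Gng13, Pcp2, the bipolar receptor Gpr179, Abca8a and Htt. Over the 47 genes the IOP and naive libraries lay apart in both genotypes for 37, against 257 of all genes tested (1.53%). The 47 were selected by calls on both responses, which favours such separation. The number of such genes was 11 without KO naive replicate 2 and 160 without KO naive replicate 3.

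A further 87 called genes had responses of the same sign, 62 with a higher and 25 with a lower KO response. They include Cx3cr1, and Dpysl4 and Epb41l3, of which the WT responses were -2.44 and -1.15 and the KO responses -0.02 for each.

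Several of the widest differences fell on genes that share sequence with others and are uncertain. Gm10123, a processed pseudogene on chromosome 9, had the widest difference of any called gene with a mean of 100 or more, 13.74 (SE 2.69, adjusted p = 0.00964). It was at 197, 1066, 552 and 847 in WT naive, 0, 402, 0 and 0 in WT IOP, 100.4, 0, 0 and 235 in KO naive and 1335, 1439.5, 1353 and 1311 in KO IOP. Every 31-base word of its transcript (100%) also occurs in transcripts of other genes, as for Rpl15-ps3 and Rps12l1, so reads can be assigned to any of the copies. Rps12l1 was at 0 in all WT and KO naive libraries and at 530.5, 819.7, 0 and 892 in KO IOP. The repeat-like models Gm10718, Gm10719, Gm11168, Gm21738, Gm10800 and Gm10801 shared 84.8%, 77.4%, 68.0%, 43.6%, 42.0% and 36.2% of their words with other genes and moved together. Gm10800 was at 138, 61.3, 147 and 62.2 in WT naive, 816, 668, 912 and 957 in WT IOP, 284, 476, 540.5 and 435 in KO naive and 109, 68.3, 206 and 94.9 in KO IOP, a difference of -5.07 (SE 0.52, adjusted p = 0.000675). Among the microglial genes Itgam shared 68.3% of its words and Cfb 75.5%, each overlapped by another gene model on the same strand, and mt-Nd3 98.1% with 1 other gene. Strand was not stated for the counting, and Cx3cr1, Cryab and Ctsl overlap genes on the opposite strand. Ctsl also overlaps a gene model on the same strand, Gm49230, and shared 28.2% of its words with other genes. Pcp2, Gng13 and Becn1, which overlap opposite-strand genes as well, shared 47.2%, 46.2% and 40.0%.

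The calls were refitted with the level of another list held constant, since rod, homeostatic and lens shares moved with the groups. With the mean log2 level of the rod list as a covariate, 49 genes were called higher and 29 lower, and 62 of the 1926 remained. With the homeostatic list as the covariate, 50 were higher and 30 lower, and 57 remained. That covariate left out Cx3cr1 and kept the other members of the list, Fcrls among them. Without WT IOP replicates 1 and 4, the pools richest in lens RNA, 49 were higher and 64 lower, and 113 remained, in a fit with fewer samples. With the lens list as the covariate limma called 0 genes, with 2244 at an unadjusted p under 0.05 against 4985 without a covariate. The lens share was 0.155% to 1.14% in WT IOP and at most 0.024% in any library of the other groups, so in that fit lens level and the WT IOP group can hardly be told apart. Traces stood elsewhere too, with Crybb2, a lens crystallin, at 220.6 in WT naive replicate 2 and 595 in KO naive replicate 3.

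In all, 37 genes were called in the fit without covariate and in the 3 fits with the rod covariate, the homeostatic covariate or without the 2 WT IOP pools. The same sign was required in each of these fits. These genes were picked after their values were seen. The 20 with a higher KO response were Rrp1, Epb41l3, Ak1, Nectin2, Ctsl, Pygl, Kcnab1, Npy, Fcrls, St6gal2, Gpx1, Stc1, Anks1b, Glra2, Dpysl4, Jak3, Tmem44, Lag3, Cpne4 and Tfec. Fcrls, Ctsl, Jak3 and Lag3 are myeloid or lysosomal among them, while Npy, Glra2, a glycine receptor subunit, Kcnab1 and Cpne4 are neuronal. The others, such as Gpx1, a glutathione peroxidase, were not assigned to a cell type here. Lag3 had 3.24 without a covariate, 2.14 with the rod and 2.23 with the homeostatic covariate and 3.04 without the 2 pools. Ctsl went from 1.88 to 1.02, 0.98 and 1.66 in the same fits, and Npy from 2.09 to 3.46, 3.38 and 2.75.

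The 17 with a lower KO response were Aldh3a1, Lgsn, Pla2g2f, Sec1, Fam83e, Cryab, Gm10801, Gm10800, Gm21738, Gm11168, Gm10718, Gm10719, Hdc, Gm47647, Cx3cr1, Gstt1 and Sncg. Cx3cr1 moved from -3.71 to -4.30, -4.67 and -4.15, Hdc from -4.44 to -4.32, -4.64 and -4.50, and Sncg from -3.10 to -2.84, -2.87 and -2.67. Of the 37 genes, 33 had responses of opposite sign, against 95.5% of the 1926 called genes and 60% of all genes tested.

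**Figure D5:**
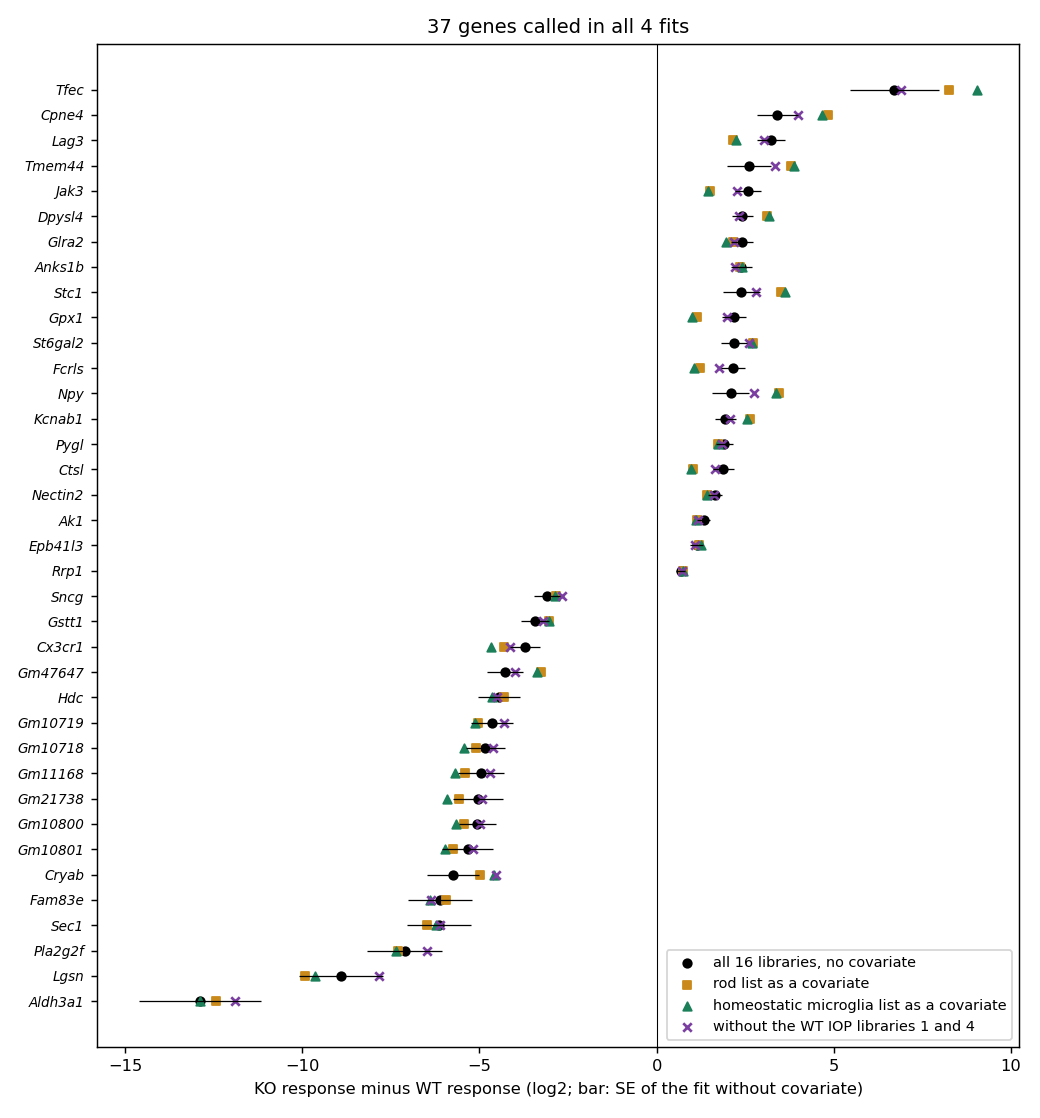
Difference of responses (x axis, log2, KO minus WT) of the 37 genes called in 4 fits, with the SE of the fit without covariate as bars. Markers show the fit without covariate, with the rod list, with the homeostatic microglia list and without WT IOP replicates 1 and 4. All 4 lie on the same side of 0 because genes were selected for the same sign.

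The same genes were then read in another injury. After ONC, a mechanical lesion of the nerve, 3 WT and 4 KO libraries taken at 7 days were compared as KO minus WT. Spp1 itself was at 14556, 16067 and 22906 in WT ONC and at 4750.3, 6811, 15 and 6226 in KO ONC. Every KO ONC library lay below every WT ONC library, but 3 of the 4 lay above every WT naive and WT IOP library, so the comparison is between libraries as labelled. Over all genes 13 were higher (0.0774%) and 2 lower (0.0119%) in KO. Among the 982 genes with a higher KO response to pressure, 2 were called higher after ONC, Rps12l1 and Pax6, and 0 lower, and among the 944 with a lower response limma called 0 either way. At an unadjusted p under 0.05 there were 104 and 71 genes of these, and 1563 over all genes. Values above 0 were found for 55.2% of the 982 and 52.5% of the 944, against 53.2% of all genes. Lag3 was at 1242, 2145 and 2299.8 in WT ONC and at 2483, 3454, 2706 and 2933 in KO ONC, a difference of 0.65 (adjusted p = 0.5), and Htt at 228, 1147 and 818 against 684, 666, 558 and 551, a difference of 0.03 (adjusted p = 0.993).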

How the data were processed

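RNA from Cx3cr1-GFP+ retinal cells was sequenced as paired reads in 23 libraries. The deposited values are a signal on a linear scale: the authors divided the reads of each gene by a size factor of the library (normalized counts). The submitters' processing notes name STAR, DESeq2 and GRCm38, while the study's methods name salmon, and the tool behind the table and the strand setting are not given in the sources used here. Dividing by the value of 1 read gave whole reads (within 0.02) for 100% of genes in every library. No per-sample column was left unused. Of 35825 gene IDs, 35436 matched GENCODE M21 by ID without version, 34732 of them with the same version, and symbols and coordinates are from it. Xist and Ifi30 were not analysed here.

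Genes with a value of 10 or more in at least 3 of the 16 libraries were fitted on log2(value + 1) with limma 3.58.1 in R 4.3.3 (4 group means, moderated variance with a trend), which gave the difference of responses and each response, with Benjamini-Hochberg adjustment over all 16793 genes. A call needed an adjusted p under 0.05 and a difference over 0.58, so fold changes of low genes are understated or depend on the added 1. All adjusted p-values in the text are from limma unless another tool is named. The ONC comparison came from a fit of all 23 libraries at 7 days. Alternatives were other pseudocounts, filters and scalings, a replicate block, all 23 libraries, rod and lens covariates, edgeR 4.0.16 and DESeq2 1.42.0 on the recovered reads, no limit on size, and leave-one-out fits over the libraries. The homeostatic covariate and the fit without 2 WT IOP pools were added after seeing the data. The code was tested on simulated data.

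Groups came from the labels. The comparison, the gene lists and the genes were chosen with earlier results of these data known. Named genes were, at a mean of 100 or more, the 12 per direction with the largest smaller response of opposite signs and the 5 per direction with the largest difference, then up to 4 called genes per list by adjusted p (the smallest p where none was called), the genes the study names, and checks of Ddx3y and Cx3cr1. Other genes, such as those called in several fits, were named after their values were seen. Promoters are from RefSeq (GRCm38.p6), matched for 11016 of 16793 genes and kept within 1000 bases of the GENCODE start, without chromosome 18. Precision is limited by 4 pools a group, and counting error alone is covered by the floor of 3 reads.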

Additional observations from a re-analysis of the deposited data

Results flagged for a closer look

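The response to pressure differed between the genotypes, by the interaction test, in 982 genes with a higher and 944 with a lower KO response. In the groups of 4 libraries of the genes given by library and of 5 list shares, 144 groups were examined and 15 held 1 library far from the other 3 for their range, where chance gives about 1 in 20.

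KO naive replicate 3 stood above the other KO naive libraries for Itgam at 31622.3 (next 8715), Lag3 at 524.1 (next 247), Ctsl at 14867.6 (next 7940.4) and Ccl5 at 526.0 (next 177), and below them for Npy at 352.6 (next 640.1). WT IOP replicate 2 stood above its group for Syk at 1960.9 (next 993), Ccl5 at 711.7 (next 286) and Gm10123 at 401.8, with 0 in the others. Itgam in KO IOP replicate 1 was lowest at 31790.7 (next 36625). Ptgs2 in WT IOP replicate 1 was highest at 5.5 (next 0.886), close to 3 reads. Sncg in WT naive replicate 4 was highest at 284.2 (next 211). Aldh3a1 was at 14.2 in WT naive replicate 1 and 40.2 in KO IOP replicate 2, with 0 in the other libraries of each group. The lens share was highest in WT naive replicate 2 at 0.0223% (next 0.0117%), and the mitochondrially encoded share in KO naive replicate 1 at 7.35% (next 5.43%). What set these libraries apart was not tested.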

How the results depend on the processing

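The comparison rests on 4 pools a group. Its counts depended on which pools were kept and on whether the level of a cell type list was held constant. Without 1 library, 351 to 2056 genes had a higher and 372 to 1842 a lower KO response, 336 to 1807 were negative in WT and positive in KO, 363 to 1727 the reverse, and 11 to 160 had both responses called in opposite directions. The highest counts came without KO naive replicate 3, and the lowest without KO naive replicate 2 or WT IOP replicate 4. The main counts were 982, 944, 920, 919 and 47.

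Counts moved by over 1.5 times as follows, in the same order. Upper-quartile rescaling gave 647 higher and 612 negative in WT and positive in KO, quantile normalization 620 and 590, and edgeR 597 and 553. DESeq2 gave 1657 lower, 1606 positive in WT and negative in KO, and 164 with both called. A fit of all 23 libraries gave 27 with both called. The rod covariate gave 49, 29, 49, 27 and 0, the homeostatic covariate 50, 30, 50, 28 and 0, and the fit without WT IOP replicates 1 and 4 gave 49, 64, 46, 61 and 8. The lens covariate gave 0, 0, 0, 0 and 0 in limma, with 2244 genes at an unadjusted p under 0.05. Fewer samples enter the fit without the 2 pools; for the other settings the cause was not tested.

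Other pseudocounts, filters and an adjusted p alone kept these counts within 1.5 times. Same-numbered replicates were not treated as pairs in the main fit, and the labels do not say whether they were. Of 24 same-number pairs of groups, 4 had a correlation of deviations over 0.1. The mean was -0.014, against 0.005 for other numbers. These correlations cannot show whether pools of the same number were handled together. A replicate block gave 939, 835, 901, 813 and 47.

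Of 139 called genes named by rule, 79 stayed called in all 16 fits without 1 library, and none of them changed sign there. Crybb2 (0.24), Crygs (2.20) and Anxa1 (0.009) changed sign under the lens covariate, and Unc93b1 (-0.019) under the homeostatic one. Among genes that were not called, 9 changed sign in 56 fits in all. A gene under 3 reads, 2.41 to 3.28 normalized counts, cannot be told from 0.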
